A study of Mus musculus with 17 samples.

Results

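The genes described here make, load and regulate MHC class I molecules: the heavy chain genes H2-K1 and H2-D1, the light chain gene B2m, the peptide transporter genes Tap1 and Tap2, the tapasin gene Tapbp, the immunoproteasome genes Psmb8, Psmb9 and Psmb10, and the regulator gene Nlrc5. They were chosen by symbol, 10 in all, from a table of 30843 loci. A row named by exactly that symbol was present for 8 of the 10 genes, in 9 rows, because Nlrc5 has 2 loci. H2-D1 and Tapbp occur only in loci that carry several gene symbols, so their values are given apart and counted nowhere. Counts below are over the 7 genes with 1 row of their own (B2m, H2-K1, Tap1, Tap2, Psmb8, Psmb9 and Psmb10), and all 7 passed a minimum of FPKM 1 in 2 or more of the 4 columns, in both read layouts. FPKM scales the sequenced fragments of a locus to its transcript length and to the mapped fragments of the library. Levels of different genes in a column can thus be set side by side.

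MHC class I molecules show peptides from inside the cell to CD8 T cells and to natural killer cells. The proteasome cuts proteins into peptides, and interferon-gamma induces the immunoproteasome subunits that take the place of its catalytic ones; the Tap transporter carries the peptides into the endoplasmic reticulum, where tapasin helps load them onto a heavy chain paired with beta-2 microglobulin. Nlrc5 is a transactivator of class I genes and is itself induced by interferon. Nearly all nucleated cells of the mammary gland express these genes, and leukocytes express them strongly.

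Polyadenylated RNA came from homogenized mammary glands of nulliparous female mice, 17 libraries in all, with the strain label C57Bl/6. The study's title names tamoxifen and letrozole, but the labels of these libraries give neither a drug nor an age. AROM mice carried tet-op-CYP19A1MMTV-rtTA, a tetracycline-controlled transgene of aromatase, the enzyme that makes estrogens, and gave 2 single-end and 3 paired-end libraries. CERM mice carried tet-op-Esr1MMTV-rtTA, a transgene of estrogen receptor alpha, and gave 2 single-end and 3 paired-end libraries. BRCA mice were Brca1fl11/fl11/MMTV-Cre/p53+/-, so their Cre-driven loss of Brca1 came with a heterozygous p53, and gave 2 single-end and 2 paired-end libraries. Wild-type (WT) mice gave 2 single-end libraries and 1 paired-end library. The MMTV promoter acts mainly in mammary epithelium, whereas the RNA was that of all cells of the gland.

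The table holds 8 columns, 1 pooled value per gene for each genotype and layout, so no spread between animals is known, no test was possible and no p-value is given. Depth is unknown. The labels say that libraries were sequenced by both layouts, so the single-end and paired-end values of a genotype are not independent repeats. Over the 11408 loci tested in both, the median absolute log2 difference between the layouts of a genotype was 0.29 in AROM, 0.16 in CERM, 0.06 in BRCA and 0.16 in WT. Of the values above 0, 56.4% in the single-end and 54.8% in the paired-end WT column end in repeating decimals, as means of 3 values do, although the labels give 2 single-end libraries and 1 paired-end library, and how the WT columns were pooled is not stated. All comparisons over WT in a layout share that 1 WT column. Of the engineered genes, Esr1 was at 8.49 and 8.41 FPKM in CERM against 7.27 and 6.89 in WT (single-end and paired-end), so the labelled over-expression was not seen as a 2-fold difference; CERM names the columns by that label throughout. Brca1 was at 3.28 and 3.29 FPKM in BRCA against 1.13 and 0.851 in WT, a value over the whole locus that cannot single out the deleted part and so does not check the deletion. Trp53 was at 12.3 and 12.1 FPKM in BRCA against 41.1 and 34.5 in WT. Mouse Cyp19a1 is no measure of the human transgene.

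One locus of the H2 region went against the strain label. H2-Ea-ps, the MHC class II E alpha locus, is not transcribed in mice of the C57BL/6 haplotype. It was at 28.1 FPKM in AROM, 3.68 in CERM, 0.113 in BRCA and 58.4 in WT in the single-end columns. Paired-end reads gave 13.2 FPKM in AROM, 1.60 in CERM, 0.0673 in BRCA and 48.1 in WT. The WT columns were highest and the BRCA columns near 0. Of the genes described here, 7 lie in the same region of chromosome 17 (H2-K1, H2-D1, Tap1, Tap2, Tapbp, Psmb8 and Psmb9), while B2m is on chromosome 2 and Psmb10 and Nlrc5 are on chromosome 8. For the genes of the region, a different H2 haplotype and the engineered genotype cannot be told apart in these columns.

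The heavy chain gene H2-K1 was highest in BRCA in both layouts. In the single-end columns it was at 404 FPKM in AROM, 709 in CERM, 926 in BRCA and 592 in WT. The paired-end columns held 559 FPKM in AROM, 746 in CERM, 1002 in BRCA and 518 in WT. BRCA therefore stood at 1.56 times WT in the single-end columns and 1.94 times in the paired-end ones, short of 2-fold in both. AROM was below WT in the single-end columns (log2 ratio of FPKM + 1, -0.55) and slightly above it in the paired-end ones (0.11). In whole-gland RNA, fewer cells of a type and less RNA per cell cannot be told apart.

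B2m, whose product pairs with every class I heavy chain, was the most abundant gene of the group. It was at 2015 FPKM in AROM, 2883 in CERM, 2802 in BRCA and 2758 in WT in the single-end columns. The paired-end values were 2349 FPKM in AROM, 3411 in CERM, 2646 in BRCA and 1975 in WT. CERM was highest in both layouts, at 1.05 times WT in one and 1.73 times in the other. The WT value itself differed by 0.48 on the log2 scale between layouts, more than any log2 ratio of B2m over WT other than the 0.79 of paired-end CERM. The locus that holds H2-D1 also carries the symbols H2-Gs10, H2-Q1, H2-Q10 and LOC547349, so reads of these near-identical genes cannot be separated. It was at 684 FPKM in AROM, 1292.5 in CERM, 455 in BRCA and 544 in WT in the single-end columns. Paired-end reads gave 760.2 FPKM in AROM, 1206 in CERM, 466 in BRCA and 346 in WT. CERM was thus 2.38 and 3.48 times WT at this locus, and the order of the genotypes differed from that of H2-K1, for which BRCA was highest.

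The stretches before the starts of these genes are shown for the known control elements they hold. The values of the locus with H2-D1 cover several gene symbols, so its order over the genotypes cannot be set against the H2-D1 promoter. The sequences are those of the reference genome, which may differ from the H2 region of these mice. Each is the 250 bases upstream of the start, read 5′ to 3′ in the direction of the gene, from RefSeq on GRCm38.p6 (the table used mm9). H2-K1 lies at chr17:34000334-34000583 on the minus strand (the most downstream of its listed starts), H2-D1 at chr17:35262844-35263093 on the plus strand and B2m at chr2:122147437-122147686 on the plus strand.
H2-K1: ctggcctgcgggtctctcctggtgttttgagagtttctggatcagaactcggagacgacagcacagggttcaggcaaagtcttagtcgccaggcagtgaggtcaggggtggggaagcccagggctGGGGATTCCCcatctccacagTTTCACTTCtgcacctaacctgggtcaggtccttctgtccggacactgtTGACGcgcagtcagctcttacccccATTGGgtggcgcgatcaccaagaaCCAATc
H2-D1: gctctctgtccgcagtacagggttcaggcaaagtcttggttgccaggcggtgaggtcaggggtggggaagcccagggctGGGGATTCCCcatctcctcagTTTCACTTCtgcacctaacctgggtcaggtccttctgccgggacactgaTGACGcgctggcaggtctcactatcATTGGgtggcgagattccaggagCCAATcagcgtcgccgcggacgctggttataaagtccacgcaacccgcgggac
B2m: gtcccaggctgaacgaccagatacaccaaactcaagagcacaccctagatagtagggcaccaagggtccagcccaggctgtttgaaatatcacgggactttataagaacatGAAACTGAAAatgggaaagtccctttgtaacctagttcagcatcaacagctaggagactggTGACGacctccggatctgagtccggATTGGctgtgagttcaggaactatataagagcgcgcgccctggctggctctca
Capitals mark matches on either strand to the kappaB element of class I genes (the first run of capitals in H2-K1 and in H2-D1), GAANNGAAA (the short form of the interferon response element), its long form (which begins with GAAA in place of GAA), TGACG (the core of the X2 box) and ATTGG (the Y box, CCAAT on the other strand). None of these letters overlap each other in the stretches shown. H2-K1 and H2-D1 both hold the kappaB element, the short interferon element, the X2 core and 2 Y boxes in the same order. B2m holds the long interferon element, the X2 core and 1 Y box. Among all 32851 promoter windows of 300 bases in the RefSeq table, 0.107% hold the kappaB letters, 7.52% the short and 3.44% the long interferon element, 20.8% the X2 core and 37.4% the Y box. The motifs were chosen with these promoters in view, and a match is no evidence of binding.

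**Figure D1:**
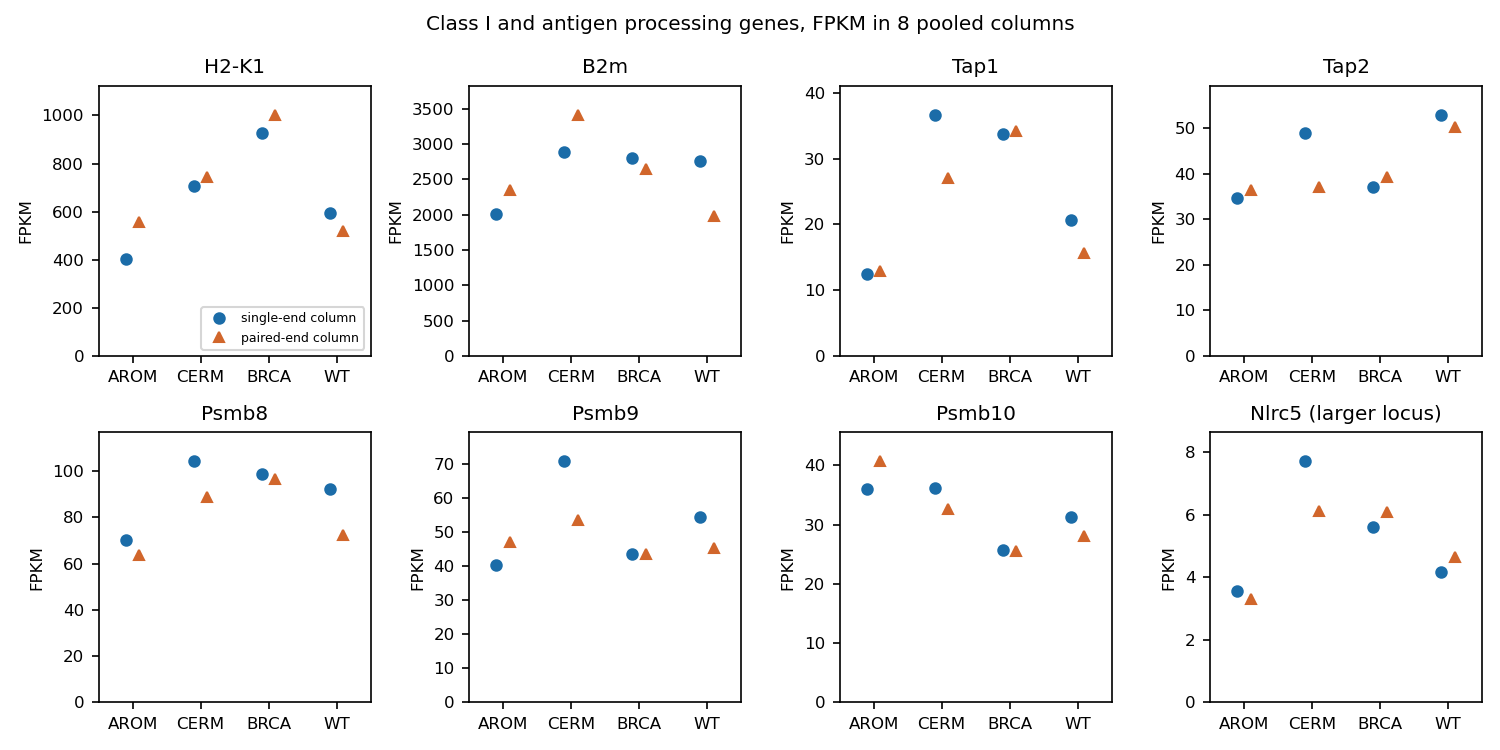
FPKM (y axes, from 0) of 8 genes in AROM, CERM, BRCA and WT, with circles for the single-end and triangles for the paired-end pooled column; no replicate error is known. Tap1 lies between 27.1 and 36.6 FPKM in CERM and BRCA and between 12.4 and 20.7 in AROM and WT, while Tap2 is highest in WT in both layouts.

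Tap1 varied most between genotypes. It encodes a subunit of the peptide transporter, with Tap2 as its partner. In the single-end columns Tap1 was at 12.4 FPKM in AROM, 36.6 in CERM, 33.7 in BRCA and 20.7 in WT. The paired-end columns held 12.8 FPKM in AROM, 27.1 in CERM, 34.2 in BRCA and 15.6 in WT. All CERM and BRCA values lay above all AROM and WT values. The highest genotype was 2.96 times the lowest in the single-end columns and 2.66 times in the paired-end ones, a wider range than for any of the other 6 genes counted.

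Tap2 did not follow it. It was at 34.6 FPKM in AROM, 49.0 in CERM, 37.0 in BRCA and 53.0 in WT in the single-end columns. The paired-end values were 36.5 FPKM in AROM, 37.1 in CERM, 39.4 in BRCA and 50.2 in WT. WT was highest in both layouts and AROM lowest. The FPKM ratio of Tap1 to Tap2 was 0.357 in AROM, 0.748 in CERM, 0.910 in BRCA and 0.391 in WT in the single-end columns. Paired-end reads gave 0.352 in AROM, 0.730 in CERM, 0.868 in BRCA and 0.311 in WT. The ratio separates CERM and BRCA from AROM and WT with little difference between layouts.

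Tapbp encodes tapasin, which bridges the transporter and the class I molecule. The locus that holds it also carries Rgl2 and Zbtb22. It was at 86.3 FPKM in AROM, 102 in CERM, 112 in BRCA and 105 in WT in the single-end columns. The paired-end columns held 100.1 FPKM in AROM, 101 in CERM, 115 in BRCA and 95.02 in WT. The genotypes lay closer together here than for Tap1.

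Tap1 and Psmb9 lie head to head and are transcribed away from each other out of a shared stretch, shown because their values differed. The 250 bases before Tap1 lie at chr17:34187306-34187555 on the plus strand of GRCm38.p6, from RefSeq, and 225 of them also belong to the 250 bases before Psmb9 on the minus strand. Capitals mark the same motifs, and TTCNNNGAA, the interferon-gamma activated site, was searched as well.
Tap1: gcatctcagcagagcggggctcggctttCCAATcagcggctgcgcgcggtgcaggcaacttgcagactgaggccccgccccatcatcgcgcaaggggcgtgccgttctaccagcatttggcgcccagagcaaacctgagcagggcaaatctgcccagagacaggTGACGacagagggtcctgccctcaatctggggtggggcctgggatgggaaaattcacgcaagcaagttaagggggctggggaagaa
This stretch holds 1 X2 core and 1 Y box and none of the other letters searched. TTCNNNGAA was found in 8.3% of all windows and, among the 8 genes with a promoter entry, in that of Psmb8 only.

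Psmb9 encodes an immunoproteasome subunit that replaces Psmb6. It was at 40.5 FPKM in AROM, 70.9 in CERM, 43.6 in BRCA and 54.6 in WT in the single-end columns. The paired-end values were 47.3 FPKM in AROM, 53.6 in CERM, 43.7 in BRCA and 45.5 in WT. CERM was highest in both layouts. BRCA, where Tap1 was 1.63 and 2.19 times WT, had 0.798 and 0.960 times the WT level of Psmb9.

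Psmb8, which replaces Psmb5, had the same order of genotypes as Tap1 in each layout. It was at 70.1 FPKM in AROM, 104 in CERM, 98.6 in BRCA and 92.3 in WT in the single-end columns. Paired-end reads gave 63.8 FPKM in AROM, 88.6 in CERM, 96.6 in BRCA and 72.3 in WT. AROM was lowest in both layouts. Over the 8 columns, each centred on the mean of its layout, Psmb8 and Tap1 had a Pearson r of 0.98 on the log2 scale, a description of columns that may share libraries.

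Psmb10, which replaces Psmb7, had another order. It was at 36.0 FPKM in AROM, 36.2 in CERM, 25.7 in BRCA and 31.3 in WT in the single-end columns. The paired-end columns held 40.7 FPKM in AROM, 32.7 in CERM, 25.5 in BRCA and 28.2 in WT. BRCA was lowest in both layouts. Its r with the mean of the other 6 genes was -0.43, against 0.92 for Psmb8, 0.85 for Tap1, 0.79 for B2m, 0.71 for H2-K1, 0.58 for Psmb9 and 0.15 for Tap2.

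The immunoproteasome subunits were set against the constitutive subunits they replace. Psmb8 over Psmb5 was 0.834 in AROM, 1.52 in CERM, 1.52 in BRCA and 0.955 in WT in the single-end columns. The paired-end values were 0.606 in AROM, 1.19 in CERM, 1.34 in BRCA and 0.872 in WT. Here CERM and BRCA stood above AROM and WT in both layouts. Psmb9 over Psmb6 was 0.350 in AROM, 0.748 in CERM, 0.567 in BRCA and 0.546 in WT in the single-end columns. The paired-end ratios were 0.376 in AROM, 0.497 in CERM, 0.538 in BRCA and 0.471 in WT, so that AROM was lowest in both. Psmb10 over Psmb7 ranged only from 0.188 in BRCA to 0.250 in CERM, both in single-end columns. Levels of the constitutive Psmb5 were 84.1 FPKM in AROM, 68.6 in CERM, 65.0 in BRCA and 96.6 in WT in the single-end columns, and 105 FPKM in AROM, 74.4 in CERM, 72.2 in BRCA and 82.9 in WT in the paired-end ones, so both terms of the first ratio differed between genotypes.

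**Figure D2:**
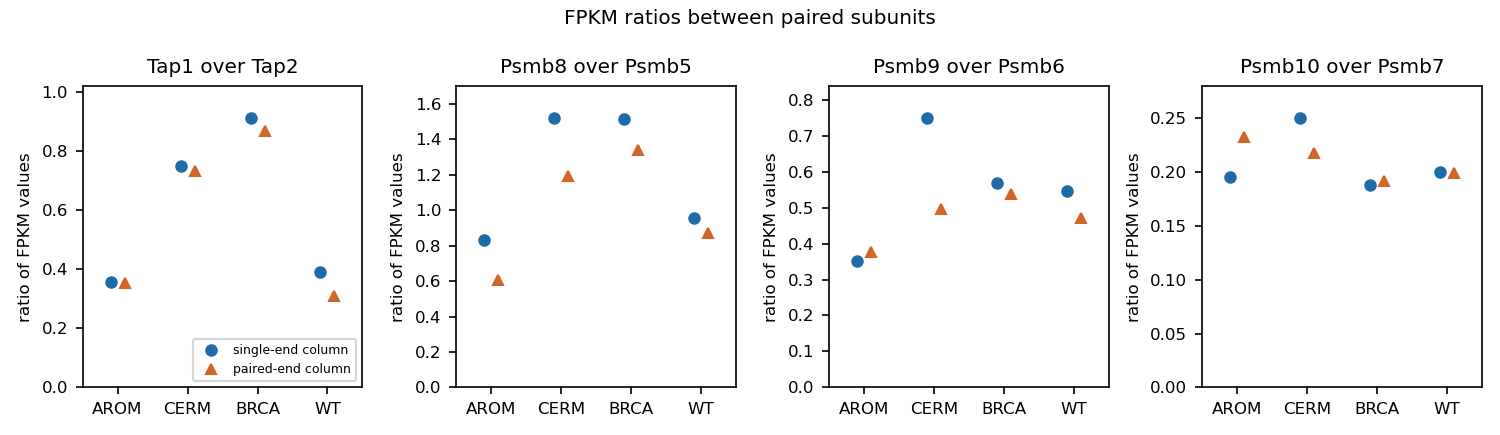
FPKM ratios (y axes, from 0) of Tap1 to Tap2 and of each immunoproteasome subunit to the constitutive subunit it replaces, in AROM, CERM, BRCA and WT, with circles for single-end and triangles for paired-end pooled columns. Tap1 over Tap2 lies at 0.730 to 0.910 in CERM and BRCA and at 0.311 to 0.391 in AROM and WT; Psmb10 over Psmb7 lies at 0.188 to 0.250 throughout.

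Nlrc5, the class I transactivator, was low. Its larger locus was at 3.57 FPKM in AROM, 7.70 in CERM, 5.59 in BRCA and 4.16 in WT in the single-end columns. Paired-end reads gave 3.31 FPKM in AROM, 6.12 in CERM, 6.10 in BRCA and 4.65 in WT. CERM and BRCA were above WT, and AROM below it, in both layouts. The smaller locus of the same symbol was between 0.144 FPKM in AROM (paired-end) and 1.17 in CERM (single-end), and with 2 loci the gene was left out of the counts. On chromosome 8, the gene lies outside the H2 region.

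Compared with WT, few of these genes were 2-fold apart. In AROM, 0 of 7 were at least 2-fold higher or lower in either layout, where 4.09% (single-end) and 4.86% (paired-end) of all loci tested were. The median log2 ratio of the 7 was -0.45 in the single-end columns, against 0.00 over all 11715 loci, and 0.05 in the paired-end ones, against -0.08 over all 11535. Of the 7, 6 lay below 0 in the single-end columns and 3 in the paired-end ones. B2m, H2-K1 and Psmb9 were the genes below WT in one layout and above it in the other.

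In CERM, 0 of 7 genes were 2-fold apart from WT in either layout, where 4.34% (single-end) and 4.33% (paired-end) of all loci were. The median log2 ratio was 0.21 in the single-end columns, against -0.05 over all loci, and 0.29 in the paired-end ones, against 0.04. Of the 7, 6 lay above 0 in each layout, with Tap2 the exception. Tap1 had a log2 ratio of 0.79 and 0.76, and 4.64% and 6.18% of all loci had one as high. B2m reached 0.79 in the paired-end columns but 0.06 in the single-end ones, and -0.38 there under quantile normalization.

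In BRCA, 0 of 7 genes were 2-fold apart from WT in the single-end columns, where 4.91% of all loci were, and 1 of 7, Tap1, was 2-fold apart (higher) in the paired-end ones, where 5.65% of all loci were 2-fold apart. The log2 ratio of Tap1 was 0.68 and 1.09, and 6.94% and 3.54% of all loci had one as high. The paired-end call ended under median-ratio scaling (0.97) and with the single-end WT column in place of the paired-end one (0.70). H2-K1 was next, with log2 ratios of 0.64 and 0.95. The median of the 7 was 0.02 in the single-end columns, against 0.04 over all loci, and 0.41 in the paired-end ones, against 0.10. Tap2, Psmb9 and Psmb10 lay below WT in both layouts.

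**Figure D3:**
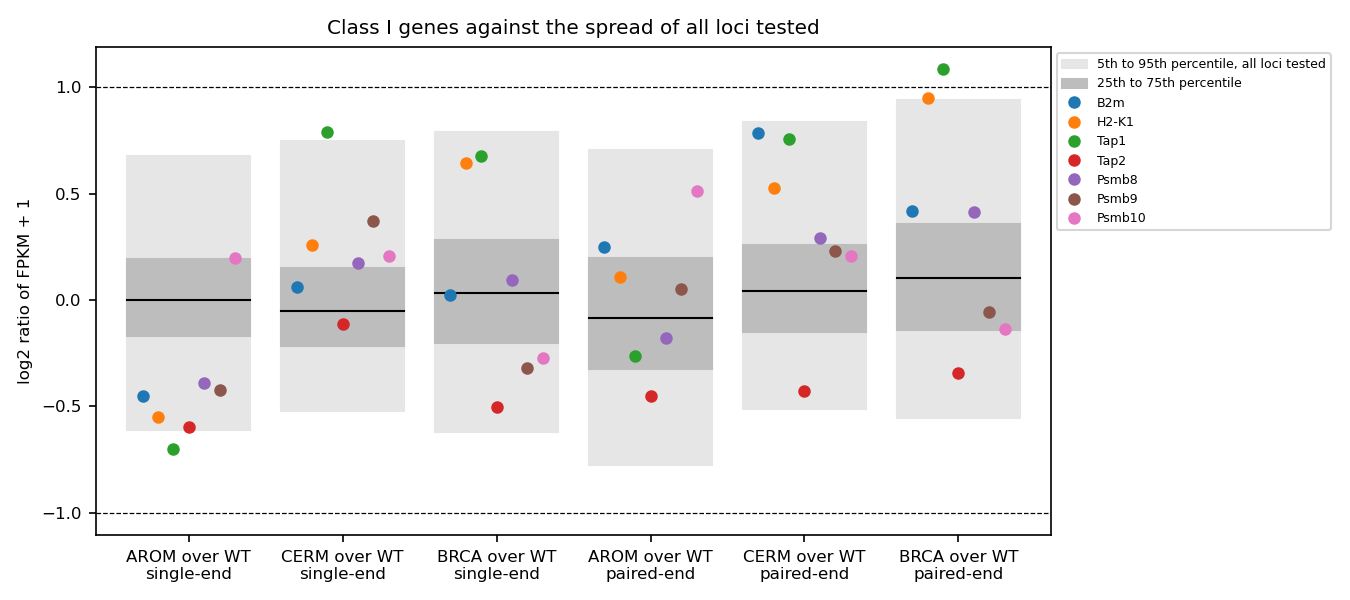
Log2 ratio of FPKM + 1 (y axis) of 7 genes over WT for AROM, CERM and BRCA in each layout, over grey bands for the 5th to 95th and 25th to 75th percentiles of all loci tested, with the median as a black line and 2-fold as dashed lines. Tap1 in BRCA, at 1.09 in the paired-end columns, is the point past 2-fold.

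Between the engineered genotypes, CERM had 1 of 7 genes at least 2-fold apart from AROM in each layout, Tap1, which was higher, where 2.28% (single-end) and 6.12% (paired-end) of all loci were 2-fold apart. Its log2 ratio was 1.49 and 1.02, and 0.674% and 3.67% of all loci had one as high. The paired-end call ended under median-ratio scaling (0.84) and quantile normalization (0.89). Over all loci the median was -0.03 in the single-end and 0.18 in the paired-end columns. The median of the 7 was 0.57 in the single-end columns, with all 7 above 0, and 0.42 in the paired-end ones, with Psmb10 below 0; under median-ratio scaling Tap2 (-0.16) and Psmb9 (-0.01) were below 0 as well.

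CERM and BRCA were 2-fold apart for 0 of 7 genes in either layout, where 5.16% (single-end) and 4.41% (paired-end) of all loci were. The median log2 ratio was 0.12 and -0.09, against -0.06 and -0.05 over all loci. H2-K1 was lower in CERM in both layouts (-0.39 and -0.43), and Psmb9 (0.69 and 0.29) and Psmb10 (0.48 and 0.34) were higher in CERM. The locus with H2-D1 was 2.84 and 2.59 times as high in CERM as in BRCA.

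AROM was at least 2-fold apart from BRCA for 2 of 7 genes in the single-end columns, Tap1 (-1.38) and H2-K1 (-1.19), both lower in AROM, where 7.81% of all loci were 2-fold apart. For paired-end reads it was 1 of 7, Tap1 (-1.35), where 14.5% of all loci were, and H2-K1 stood at -0.84 (-1.33 under quantile normalization). The median of the 7 was -0.48 and -0.17. The call of Tap1 held under every alternative setting tried in both layouts. Psmb10 was higher in AROM in both layouts (0.47 and 0.65). Over all loci the median was -0.02 in the single-end and -0.21 in the paired-end columns, the widest shift of all loci in any comparison.

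Other class I genes of the H2 region differed in how far they varied. H2-T24 lay between 3.64 and 4.45 FPKM in the single-end columns and between 2.37 and 4.15 in the paired-end ones. H2-M3, which presents formylated peptides, was highest in BRCA, at 10.6 and 9.26 FPKM against 5.50 and 4.46 in WT. H2-Q8 was at 5.74 FPKM in AROM, 22.6 in CERM, 23.4 in BRCA and 4.16 in WT in the single-end columns. The paired-end columns held 4.65 FPKM in AROM, 12.0 in CERM, 14.3 in BRCA and 2.25 in WT, again high in CERM and BRCA. H2-Q6 was at 9.38 FPKM in AROM, 38.8 in CERM, 28.8 in BRCA and 14.96 in WT in the single-end columns. The paired-end values were 6.30 FPKM in AROM, 25.6 in CERM, 31.7 in BRCA and 0.262 in WT, so the WT value differed widely between layouts. The locus with H2-T9 and H2-T22, a ligand of gamma-delta T cell receptors, was at 16.8 FPKM in AROM, 39.6 in CERM, 12.3 in BRCA and 32.8 in WT in the single-end columns. Paired-end reads gave 18.3 FPKM in AROM, 45.7 in CERM, 14.98 in BRCA and 45.3 in WT, so AROM and BRCA were the low genotypes. H2-T23 encodes Qa-1, which shows leader peptides of other class I chains to natural killer cells, and the larger of its 2 loci had the same low genotypes, at 27.9 and 29.0 FPKM in AROM, 84.2 and 78.0 in CERM, 25.8 and 35.6 in BRCA and 58.7 and 67.1 in WT. The smaller H2-T23 locus had another order, with BRCA highest and WT lowest in both layouts. It was at 5.67 and 3.59 FPKM in AROM, 7.64 and 3.56 in CERM, 10.9 and 4.82 in BRCA and 2.73 and 0.220 in WT. H2-M2 was highest in BRCA, at 11.4 and 10.4 FPKM against 2.94 and 2.92 in WT.

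These genes are near-identical and polymorphic, and the authors' handling of reads that match several of them is not stated in the sources used here. One of the loci named H2-Q7 was at 1089 FPKM in single-end WT and listed at 0 in all paired-end columns. The list of other class I genes had 10 analysed in the single-end and 11 in the paired-end columns, of which Cd1d1, Mr1, Hfe and Fcgrt are not H2 genes. In CERM 3 of 10 were at least 2-fold apart from WT in the single-end columns, all higher, where 4.34% of all loci were, and 3 of 11 in the paired-end ones, all higher, where 4.33% were. In BRCA 2 of 10 were higher and 1 lower in the single-end columns, where 4.91% of all loci were 2-fold apart. In the paired-end columns 4 of 11 were higher and 1 lower, where 5.65% of all loci were 2-fold apart. The lower gene in both layouts was H2-Q1 in its own locus, at 0.421 and 0.174 FPKM in BRCA against 2.91 and 7.33 in WT. It was at 5.04 and 5.37 FPKM in AROM and at 8.47 and 4.46 in CERM. The locus with H2-D1 carries the symbol H2-Q1 too. In AROM 0 of 10 were 2-fold apart in the single-end columns, where 4.09% of all loci were, and 3 of 11 in the paired-end ones, all higher, where 4.86% were. H2-T3, analysed in the paired-end columns only, reached FPKM 1 there only in AROM (1.36) and BRCA (2.72), where it counts as higher. H2-Q6 counts as higher in AROM, CERM and BRCA there, against a WT value of 0.262 FPKM (14.96 in single-end WT). The paired-end counts thus rest in part on the FPKM minimum and on that low WT value.

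**Figure D4:**
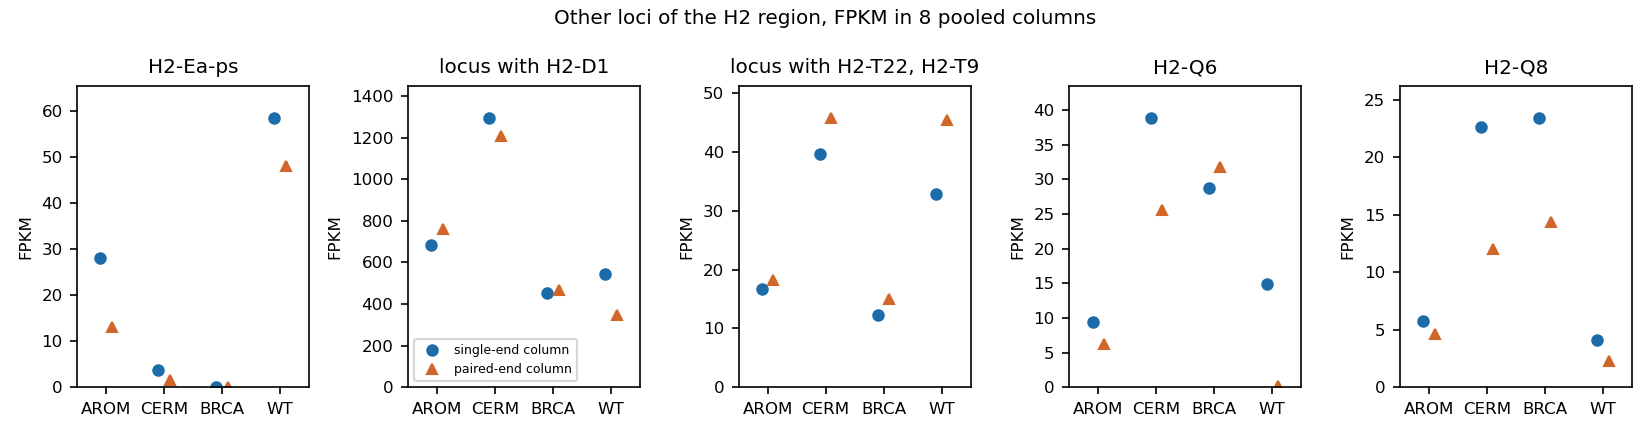
FPKM (y axes, from 0) of 5 other loci of the H2 region in AROM, CERM, BRCA and WT, with circles for single-end and triangles for paired-end pooled columns. H2-Ea-ps is highest in WT, at 48.1 and 58.4, and near 0 in BRCA; the locus with H2-D1 is highest in CERM, at 1206 and 1292.5; H2-Q8 is high in CERM and BRCA.

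Of the class I-like genes outside the region, Hfe had the order of Tap1 in the single-end columns but not in the paired-end ones. Hfe was at 11.6 FPKM in AROM, 16.6 in CERM, 13.4 in BRCA and 12.1 in WT in the single-end columns. Its paired-end values were 13.9 FPKM in AROM, 22.9 in CERM, 12.6 in BRCA and 10.04 in WT. Fcgrt, Cd1d1 and Mr1 did not have the order of Tap1 in either layout. Fcgrt, which encodes the neonatal Fc receptor, was at 144 and 211 FPKM in AROM against 92.2 and 77.2 in WT. Cd1d1, which presents lipids, was at 26.6 and 32.0 FPKM in BRCA against 52.0 and 46.9 in WT. Mr1, which presents vitamin B metabolites, was at 7.79 and 7.57 FPKM in BRCA against 13.5 and 12.7 in WT. Cd1d1 and Mr1 were thus lower in BRCA, where H2-K1 was high.

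Of the genes that serve peptide loading in the endoplasmic reticulum, Calr, Pdia3 and Hspa5 were highest in BRCA. The chaperone gene Calr was at 415 and 423 FPKM in BRCA against 253 and 213 in WT, and the oxidoreductase gene Pdia3 at 257 and 243 FPKM in BRCA against 159 and 123 in WT. Hspa5, a general chaperone of the endoplasmic reticulum, was at 336 and 319 FPKM in BRCA against 181 and 168 in WT. Erap1, the peptide-trimming aminopeptidase gene, was at 18.7 and 17.2 FPKM in BRCA against 16.6 and 12.6 in WT. None of the 7 genes analysed of this list of 8 passed 2-fold against WT in any genotype or layout, where 4.09% to 5.65% of all loci did. Their median log2 ratio in BRCA was 0.30 and 0.48, against 0.04 and 0.10 over all loci. In AROM it was -0.11 and -0.25, against 0.00 and -0.08 over all loci, and in CERM -0.23 and 0.31, against -0.05 and 0.04.

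None of the 3 constitutive catalytic genes, the 4 activator genes analysed of 5, or the 11 other core subunit genes passed 2-fold against WT, where 4.09% to 5.65% of all loci did. Psmb5, Psmb6 and Psmb7 all lay below WT in BRCA, with a median log2 ratio of -0.38 and -0.20. Psme2, an activator gene induced by interferon-gamma, was at 154 and 169.6 FPKM in AROM against 142 and 104 in WT.

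Of the interferon-gamma signalling genes, Irf8, a transcription factor of myeloid and B cells, was at 12.7 and 12.8 FPKM in BRCA against 5.75 and 4.56 in WT, at least 2-fold higher in both layouts. Stat2, a transcription factor of type I interferon signalling, was at 11.1 and 10.9 FPKM in BRCA against 5.42 and 4.71 in WT, past 2-fold on the FPKM + 1 scale in the paired-end columns (log2 ratio 1.06) and short of it in the single-end ones (0.91). Ifng itself, named outside the rule for its low level, was between 0.0929 and 0.258 FPKM in all columns. Of the class I promoter complex and kappaB factors 0 of 11 genes passed 2-fold against WT, a count not apart from the 4.09% to 5.65% of all loci.

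Summed levels of cell type markers differed between genotypes too. The summed FPKM of 4 of 4 leukocyte genes was 47.3 in AROM, 61.7 in CERM, 135 in BRCA and 51.2 in WT in the single-end columns, and 45.4 in AROM, 107 in CERM, 132 in BRCA and 37.7 in WT in the paired-end ones. That of 10 of 11 T and natural killer cell genes was 16.3 in AROM, 40.3 in CERM, 42.6 in BRCA and 28.0 in WT, and 15.9 in AROM, 29.2 in CERM, 40.6 in BRCA and 21.98 in WT. In CERM the leukocyte sum differed between layouts. Cd53 was at 7.12 FPKM in the single-end and 19.4 in the paired-end CERM column, and Laptm5 at 27.4 and 59.7. Ptprc was at 7.06 and 9.17 FPKM there, and Coro1a at 20.1 and 19.2. The leukocyte sum and the T and natural killer cell sum were both higher in CERM and BRCA than in WT, as Tap1 was. Not all T and natural killer cell genes went that way. Of those that passed the FPKM minimum, 2 of 9 lay below WT in single-end CERM and 3 of 8 in paired-end CERM. In BRCA 2 of 9 and 1 of 8 did. Cd4 was at 0.989 and 0.793 FPKM in CERM against 3.08 and 2.75 in WT. The sum of 4 of 4 B cell genes was 38.6 and 36.9 in BRCA and between 3.27 and 5.66 in the other columns.

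The sum of 5 of 7 macrophage genes was 310.0 in AROM, 329 in CERM, 528 in BRCA and 305 in WT in the single-end columns, and 289.6 in AROM, 459.9 in CERM, 522 in BRCA and 234 in WT in the paired-end ones. That of 4 of 7 epithelial genes was 331 in AROM, 437 in CERM, 636 in BRCA and 641 in WT, and 195 in AROM, 439 in CERM, 629 in BRCA and 508 in WT. The sum of 5 of 5 adipocyte genes was 17953 in AROM, 9899 in CERM, 8513 in BRCA and 13026 in WT, and 22515 in AROM, 15129 in CERM, 7858 in BRCA and 9550.4 in WT, highest in AROM in both layouts.

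The sum of 5 of 5 skeletal muscle genes was 20415 in AROM, 23046 in CERM, 9650.04 in BRCA and 7243 in WT in the single-end columns. All 5 genes were at least 2-fold higher than WT there in AROM and in CERM. Of all loci, 4.09% (AROM) and 4.34% (CERM) were 2-fold apart from WT there. The paired-end sums were 13546 in AROM, 16996 in CERM, 9665 in BRCA and 12349 in WT, so the WT sum differed between layouts. That of 4 of 4 fibroblast genes was 806 in AROM, 623 in CERM, 743 in BRCA and 571 in WT, and 592 in AROM, 954 in CERM, 722 in BRCA and 388 in WT. Endothelial sums (4 of 4 genes) lay between 95.4 and 141, and dendritic cell sums (4 of 5 genes) between 4.73 in AROM and 15.8 in CERM, both in paired-end columns. The dendritic cell sum of CERM was 7.04 in the single-end columns, with Itgax at 2.75 FPKM there and 12.3 in paired-end CERM. No gene of these lists with a locus of its own was listed at 0 in any column. AROM, with the lowest H2-K1, Tap1 and Psmb8 in the single-end columns, was also lowest in the T cell and epithelial sums. The part of these cell types in the class I values was not tested.

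Among 4642 other genes with FPKM of at least 1 in all 8 columns and an SD no lower than that of the least variable of the 7, those whose pattern was most like the mean of the 7 genes were ranked by Pearson r over the 8 layout-centred columns. The first 5 were Ctsw, a cathepsin gene (r = 0.97), Cd7, a surface receptor gene (0.95), Nkg7, a granule protein gene (0.94), Net1, an exchange factor gene (0.93), and Cxcl9, a chemokine gene (0.92). Cd7 was at 1.75 FPKM in AROM, 13.6 in CERM, 7.04 in BRCA and 4.11 in WT in the single-end columns. The paired-end columns held 1.81 FPKM in AROM, 8.95 in CERM, 6.93 in BRCA and 3.13 in WT, with AROM lowest and CERM highest in both. With 8 columns that may share libraries, the ranking describes this table only.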

How the data were processed

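Expression was deposited by the authors as FPKM, in a table of 30843 loci whose 8 columns each stand for a genotype in a read layout. The submitters' processing notes name FastQC, Trim Galore, TopHat, Cufflinks and mm9; versions, strand handling and pooling are not stated in the sources used here, and depth is unknown. Loci with a symbol of their own (20420) were tested in a layout if 2 or more of its 4 columns reached FPKM 1, which left 11715 single-end and 11535 paired-end. The log2 ratio of FPKM + 1, which understates low genes, was computed for 6 pairs of genotypes per layout (Python 3.11.15, pandas 2.3.3), and 2-fold was called. The calculation was checked on simulated data. All genes of the group are named; of other lists, up to 4 by size of ratio, or any of the class I, loading, constitutive and activator lists. Members and lists were chosen with earlier results of these data known, and motifs after the promoters were seen. Promoters and chromosomes are from RefSeq, GRCm38.p6; 8 of the 10 genes had a promoter entry. Some results are not reported here.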

Additional observations from a re-analysis of the deposited data

How the results depend on the processing

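Each comparison was repeated with a pseudocount of 0.1, median-ratio scaling, quantile normalization, no FPKM minimum, loci of the same symbol summed (which adds Nlrc5) and, against WT, the WT column of the other layout. The number of genes at least 2-fold apart was 0 for CERM over WT in the single-end columns and 1 with the paired-end WT column. For BRCA over WT it was 0 in the single-end columns, 1 under quantile normalization and 1 with the other WT column. In the paired-end columns it was 1, with 0 under median-ratio scaling, 2 under quantile normalization and 0 with the other WT column. For CERM over AROM in the paired-end columns it was 1, with 0 under median-ratio scaling and 0 under quantile normalization. For AROM over BRCA in the paired-end columns it was 1, with 2 under quantile normalization. The other counts moved by at most 1.5 times, and among 462 values of single genes none past 2-fold changed sign. The cause of these changes was not tested. B2m over WT changed sign in 5 of 6 cases: with the other WT column it went to 0.03 in single-end AROM (-0.45 before), to -0.23 in paired-end AROM (0.25 before) and to -0.06 in paired-end BRCA (0.42 before), under quantile normalization to -0.38 in single-end CERM (0.06 before) and -0.02 in paired-end AROM, and under median-ratio scaling to -0.00 in single-end BRCA (0.02 before). So did H2-K1 and Psmb9 in AROM and Psmb8 and Psmb9 in CERM, all in paired-end columns. Between engineered genotypes, B2m in CERM over BRCA (single-end), Tap2 and Psmb9 in CERM over AROM, and B2m, Tap2 and Psmb9 in AROM over BRCA (paired-end) changed sign with the scaling. No paired analysis was possible because the columns are pooled over libraries, and for the same reason no replicate could be left out.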
